A study of Mus musculus with 12 samples.

Results

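The genes described here are 34 genes that fold, monitor and dispose of proteins in the endoplasmic reticulum (ER), out of 52535 gene symbols in the count files. They were chosen by name and function, with no measured value in the rule. They fall into 4 stress sensors, 12 chaperones with their co-factors, 6 thiol oxidoreductases, 10 genes of ER-associated degradation and 2 subunits of the translocon. Xbp1, a transcription factor that acts downstream of a sensor, is counted with the sensors. The question asked of the 34 genes was whether their mRNA levels follow treatment of T-cell acute leukemia/lymphoma (T-ALL) cells with PKF118-310. That small molecule keeps β-catenin from binding Tcf.

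Secreted and membrane proteins enter the ER through the Sec61 translocon and fold there with the help of chaperones and of enzymes that form disulfide bonds, while misfolded chains are pulled back to the cytosol and degraded by the proteasome. When unfolded chains accumulate, the sensors IRE1, PERK and ATF6 release the unfolded protein response, in which spliced XBP1, ATF4 and cleaved ATF6 switch on chaperone, degradation and amino acid genes. T cells build receptors at their surface and depend on this machinery, although they secrete far less protein than plasma cells do.

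The cells were 3 mouse T-ALL lines, called 240, 242 and 352 in the labels, each grown from the thymic tumor of a different mouse. All lines and both groups carried the same pair of transgenes, Dlx5 and a myristoylated, constantly active Akt2, each driven by the Lck promoter, which acts in immature T cells. The control group held 1 library per line, from cells that the study describes as placebo-treated, and the PKF118-310 group held 1 library per line, at a dose and time that the labels leave to the study. No age, sex or untransformed T-cell group is part of the comparison, and each line stands for a single tumor.

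The promoters show which of these genes carry the DNA elements of the response. RefSeq windows on GRCm38.p6, from 250 bases before to 50 bases after each transcription start, were found for 29 of the 34 genes, and 5 genes (Atf6, Hyou1, Manf, Derl1 and Sec61a1) had none. The windows were searched on both strands for the ER stress response element ERSE (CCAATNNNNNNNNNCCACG), which binds NF-Y at its first part and ATF6 or XBP1 at its last part, for ERSE-II (ATTGGNCCACG), for the core of the unfolded protein response element, UPRE (TGACGTGG), and for CARE (TGATGNAA), the element of ATF4. ERSE ends in the letters CCACG, and so does ERSE-II. The lines below show the elements of genes whose behavior after PKF118-310 is compared further on, each read along the strand of its gene with the match in capitals and 5 bases on either side.
Hspa5, ERSE, chr2:34772020-34772048, plus strand: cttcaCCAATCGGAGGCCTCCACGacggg
Calr, ERSE in reverse orientation, chr8:84847070-84847098, minus strand: caacgCGTGGTCGACCCTCATTGGcccat
Canx, ERSE, chr11:50325795-50325823, minus strand: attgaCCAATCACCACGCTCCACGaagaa
Hsp90b1, ERSE, chr10:86705633-86705661, minus strand: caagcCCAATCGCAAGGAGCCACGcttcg
Dnajc3, ERSE, chr14:118937822-118937850, plus strand: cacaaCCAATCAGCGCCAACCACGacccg
Herpud1, ERSE-II, chr8:94386372-94386392, plus strand: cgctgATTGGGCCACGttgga
Txndc5, UPRE core, chr13:38528040-38528057, minus strand: gccgcTGACGTGGcgcta
All of them lie before a RefSeq start of their gene. GENCODE vM21 places no gene at those of Calr, Canx, Hsp90b1 and Dnajc3, an untranslated exon of a longer Hspa5 transcript at that of Hspa5, an intron of the antisense gene Gm15890 at that of Herpud1, and an intron of Txndc5 with an exon of Gm31834 at that of Txndc5.

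A full ERSE was found in 9 of the 29 genes with a window, and in 0 of 40 other genes of the same pathway with a window. The share was 0.119% of all 32851 windows, a share of windows and not of genes, as some genes have several. Genes of the unfolded protein response were chosen by function, so this contrast is a description and not a test. The 9 genes were Calr, Canx, Creld2, Derl3, Dnajc3, Hsp90b1, Hspa5, Pdia6 and Syvn1, and Hsp90b1, which encodes the chaperone GRP94, carried a second copy. ERSE-II was found in Herpud1 and, just after the start, in Dnajb11, against 0.0365% of all windows. The UPRE core was found in Txndc5 (0.676% of all windows), and CARE in Herpud1 and Txndc5 (3.97%). Txndc5 has 3 windows, and its UPRE core lies in an intron of the gene, before an alternative start. The last part of ERSE alone, CCACG, is short and was found in 24 of the 29 genes, against 32.8% of all windows. The first bases of the ERSE matches lie 44 to 212 bases before the start, and the plot of element positions shows the centres of the elements. These matches are letters in a window, and no binding was measured here.

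**Figure D1:**
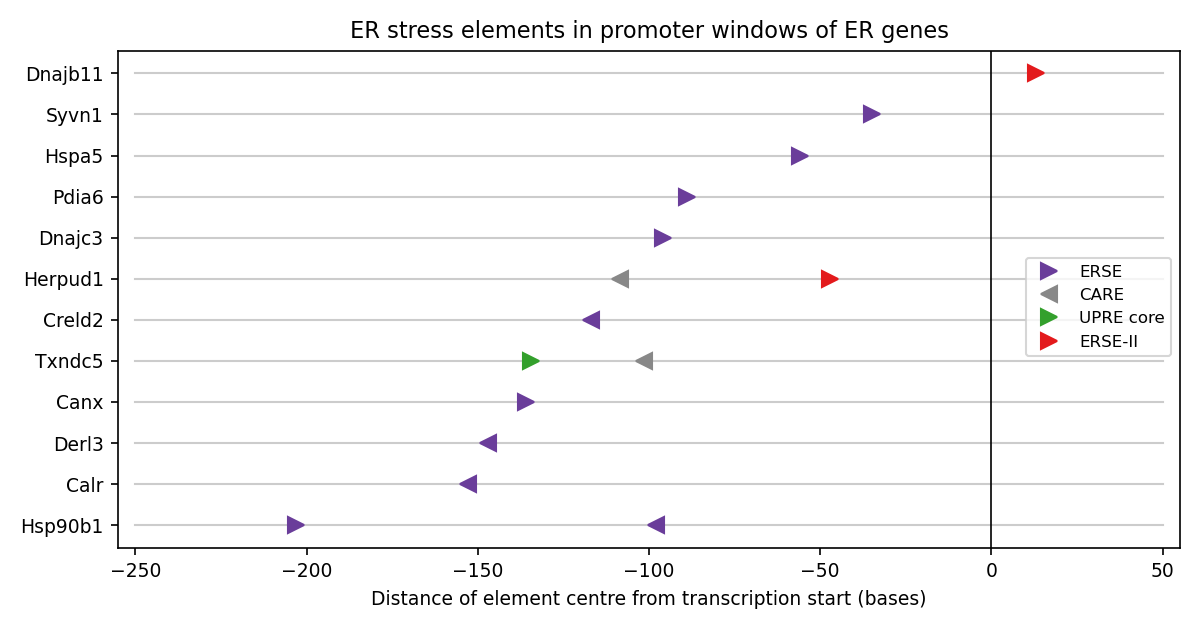
Positions of 4 kinds of element in the promoter windows of 12 ER genes. The horizontal axis gives the distance of the element's centre from the transcription start in bases, each row is a gene, colors stand for the kind of element, and triangles point right for the strand of the gene and left for the opposite strand. ERSE matches lie before the start in all 9 genes that have one, and the ERSE-II match of Dnajb11 lies after it.

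Depth and identity of the libraries set limits on what follows. Total counts ran from 3160824 to 13766638 in 5 libraries and were 604984 in the treated library of line 242. That library also stood apart in mitochondrial counts (11.8% of its total, against 1.84% to 3.10% in the others) and in counts of genes with 0 counts in the control of its line, which took 5.56% of its total against 0.24% in line 240 and 0.0764% in line 352. All 9 T-cell markers were detected in every library. In CPM, that is, counts scaled to a total of 1000000, their sum went from 4930 to 4985 CPM with treatment in line 240, from 4507 to 2083 CPM in line 242 and from 2955 to 1974 CPM in line 352, and its part in the results was not tested. Markers of B and plasma cells summed to 49.9 to 102 CPM, nearly all Sdc1, which had 37 to 1399 counts. The other genes of that list had 0 to 9 counts. Macrophage markers went from 1.79 to 19.8 CPM in line 242, the latter from 12 counts. They went from 1.24 to 5.38 CPM in line 240 and from 4.01 to 5.30 CPM in line 352. Whether other cell types were present was not tested. The 6 stromal and epithelial markers summed to 47.9 CPM in the treated library of line 242, of which Col1a1 had 14 counts and Epcam 11, and the control of that line had 1 count in all. Results are therefore given for all 3 lines and for lines 240 and 352 alone. That leaving out line 242 changes the count of calls was known from earlier work on these data. Neither fit is thus independent of earlier results.

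In control cells the ER genes differed widely in level. Expressed per kilobase of exon and scaled to library depth (RPKM), the highest was Edem1, which encodes a lectin that hands misfolded glycoproteins to degradation, at 247 ± 167 RPKM (SD, n = 3). The calcium-binding lectin chaperones Calr (148 ± 30.6) and Canx (125 ± 24.2), the chaperone Hsp90b1 (129 ± 16.5), the disulfide isomerases Pdia3 (118 ± 11.6) and P4hb (111 ± 14.2) and the chaperone Hspa5 (79.1 ± 14.0) followed. The lowest were the sensor Ern1 at 4.67 ± 2.79 RPKM and Dnajb9, a co-chaperone of Hspa5, at 3.92 ± 1.18. Derl3, a channel subunit of the degradation machinery, had 0 or 1 counts in every library and was the member that failed the filter on low counts, so 33 members were tested.

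Neighbors in this order rarely differed beyond the spread of the 3 lines. Of neighboring genes, the control values did not overlap only between P4hb and Hspa5, between Hspa5 and Sec61b, between Dnajc10 and Xbp1, and between Dnajb9 and Derl3. The PKF118-310 libraries kept a similar span, as the plot of levels per length shows, with Dnajb9 of line 242 standing out at 19.5 RPKM against 2.96 to 5.60 RPKM in the other libraries.

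**Figure D2:**
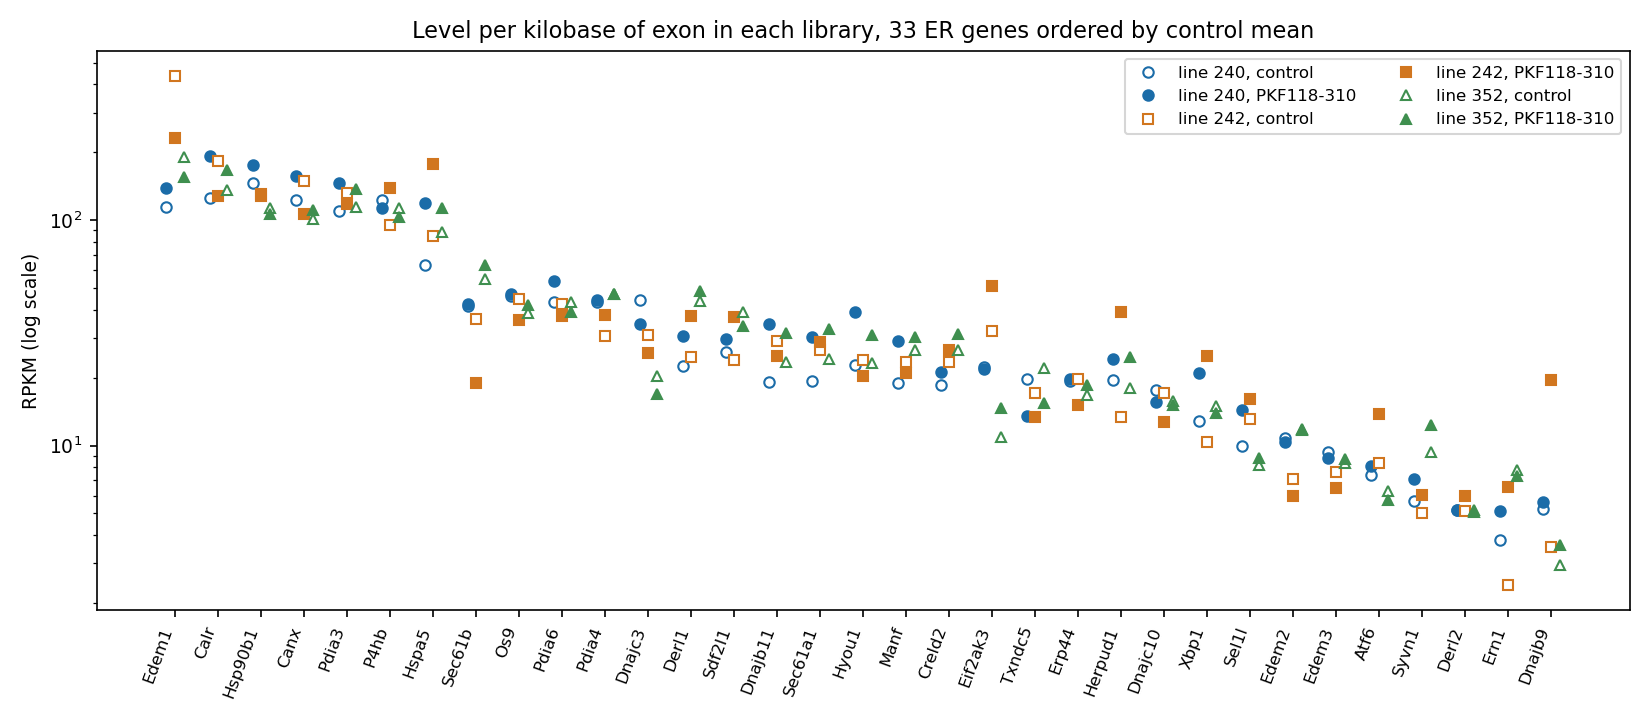
Level of 33 ER genes in each library, ordered by the mean of the 3 controls. The vertical axis is RPKM on a log scale, open symbols are controls, filled symbols are PKF118-310, and colors and shapes mark the line. Edem1 in line 242 stands highest, at 435 RPKM in the control and 231 RPKM after treatment, and Dnajb9 and Ern1 have the lowest control means.

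After PKF118-310, no member passed the edgeR quasi-likelihood test with the line as a block when all 3 lines entered, as was the case for every gene tested (0 of 10331, 0%). The members' median log2 fold change was 0.19, beside 0.00 over all genes, with 24 members higher and 9 lower. An unadjusted p below 0.05 was reached by 3 members (Hspa5, Txndc5 and Sec61a1) and by 570 genes in all, the smallest adjusted p of a member was 0.842, and DESeq2 and the likelihood ratio test also passed 0 members. With limma voom and sample weights, which gave the libraries of line 242 less weight, 4 of 33 members passed, against 7.75% of all genes. Hspa5, Dnajb11 and Sec61a1 rose (9.09%, against 3.17% of all genes) and Txndc5 fell (3.03%, against 4.59%).

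With lines 240 and 352 alone, 5 of 33 members rose (15.2%) against 5.01% of the 11760 genes tested, and 1 fell (3.03%) against 5.92%. The genes that rose were the chaperones Hspa5, Hyou1, Dnajb11 and Calr and the translocon subunit Sec61a1, and the gene that fell was the oxidoreductase Txndc5. The median over members was 0.13, beside -0.01 over all genes. By role, 4 of 12 chaperones rose, 1 of 6 oxidoreductases fell, 1 of 2 translocon subunits rose, and 0 of 4 sensors and 0 of 9 degradation genes passed the test. The members nearest to the threshold were Calr inside it (edgeR adjusted p = 0.0324) and Herpud1 outside it (0.0754).

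The lines did not behave alike. The median log2 ratios of treated over control were 0.27, 0.02 and 0.11 in lines 240, 242 and 352, beside 0.00, -0.10 and 0.00 over all genes. Ratios pointed up in all 3 lines for 9 members (27.3%, against 13.9% of all genes) and down in all 3 for 4 members (12.1%, against 18.7%). The 9 were Hspa5, Dnajb9, Creld2, Pdia4, Herpud1, Syvn1, Sel1l, Derl1 and Sec61a1, and the 4 were Dnajc3, Dnajc10, Txndc5 and Edem2. In 11 members lines 240 and 352 went the same way and line 242 the other (33.3%, against 36.2%). These ratios come from 1 library per line and group and have no test.

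**Figure D3:**
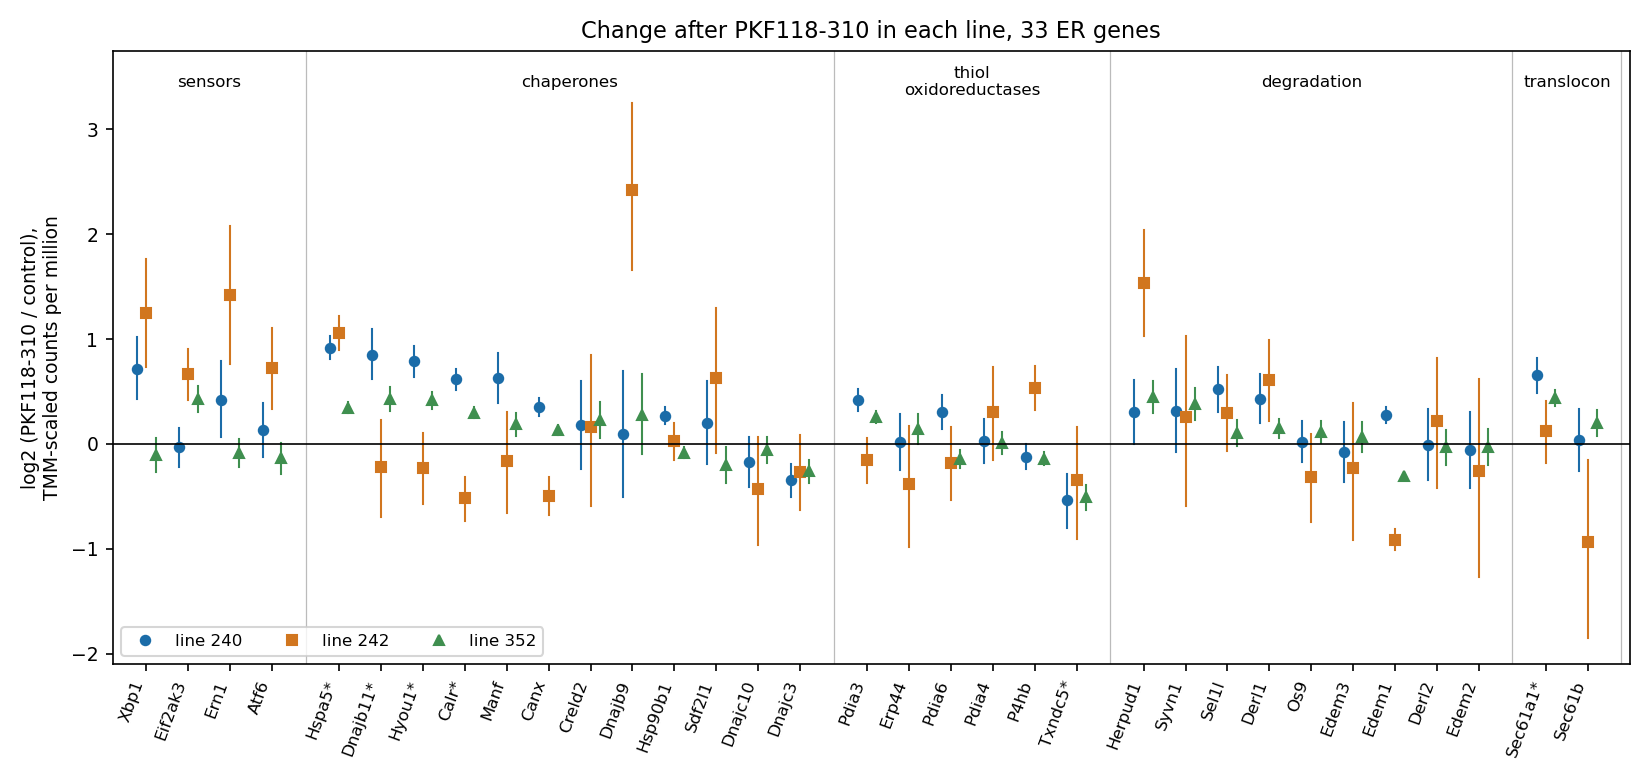
Log2 ratio of PKF118-310 over control in each line for 33 ER genes, grouped by role and ordered by the fit of lines 240 and 352. Symbols mark the line, vertical bars are 95% intervals that cover counting error only, and an asterisk marks an adjusted p below 0.05 in the edgeR fit of lines 240 and 352. Hspa5 lies above 0 in all 3 lines, while Hyou1, Dnajb11 and Calr lie above 0 in lines 240 and 352 and below 0 in line 242.

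Among the chaperones, Hspa5 was higher in the treated library of every line. It encodes BiP, the Hsp70 chaperone of the ER that holds the sensors inactive, and lies on chromosome 2 from 34771970 to 34777547 (mm10). Its level, scaled between libraries by the trimmed mean of M values (TMM), went from 267 to 505 CPM in line 240, from 361 to 750.5 CPM in line 242 and from 376 to 477 CPM in line 352. The treated libraries all lay above the controls, which 3 members and 2.95% of all genes did. The log2 fold change was 0.62 ± 0.14 in lines 240 and 352 (SE, edgeR adjusted p = 0.0141) and 0.81 ± 0.22 in all 3 lines (unadjusted p = 0.0150, adjusted p = 0.842). Line 242 thus had the highest treated value and line 352 the smallest ratio, 0.34 on the log2 scale against 0.92 and 1.06.

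Hyou1, a large Hsp70-like chaperone that exchanges nucleotide on BiP, lies on chromosome 9 from 44379490 to 44392369. Its level went from 164 to 283 CPM in line 240, from 173 to 148 CPM in line 242 and from 168 to 224 CPM in line 352. The 3 controls lay within 10 CPM of one another, and the treated libraries lay above them in 2 lines and below them in line 242. It rose by a log2 fold change of 0.59 ± 0.12 in lines 240 and 352 (edgeR adjusted p = 0.00807), against 0.38 ± 0.22 in all 3 lines.

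Dnajb11, a J-domain co-chaperone that delivers clients to BiP, lies on chromosome 16 from 22857845 to 22879634 and overlaps the opposite-strand gene Gm30505. It went from 62.0 to 112 CPM in line 240, from 93.8 to 80.7 CPM in line 242 and from 76.0 to 102 CPM in line 352. The control of line 242 lay above its treated library, so the groups overlapped. The rise in lines 240 and 352 was 0.61 ± 0.13 (edgeR adjusted p = 0.00994), against 0.42 ± 0.22 in all 3 lines.

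Calr, on chromosome 8 from 84841850 to 84846934, went from 362 to 555 CPM in line 240 and from 390 to 479 CPM in line 352. In line 242 it went from 527 to 368 CPM, and the control of that line was higher than the treated library of line 352. In lines 240 and 352 the log2 fold change was 0.45 ± 0.12 (edgeR adjusted p = 0.0324), a call kept in 6 of 11 alternative settings, and in all 3 lines it was 0.18 ± 0.25.

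The other 8 chaperones did not pass the test in either fit. Canx, the membrane-bound partner of Calr, had ratios of 0.35, -0.49 and 0.13 in lines 240, 242 and 352, and Manf, a secreted ER stress factor whose locus also holds the same-strand gene Rbm15b, had 0.63, -0.16 and 0.19. Hsp90b1 was among the most abundant and had ratios of 0.27, 0.02 and -0.08. Dnajc3, which encodes the PERK inhibitor p58IPK, was lower in all 3 lines, at ratios of -0.35, -0.27 and -0.26 (edgeR adjusted p = 0.0799 in lines 240 and 352), and Dnajc10, a reductase with a J domain, was lower at -0.17, -0.43 and -0.06. Dnajb9 had ratios of 0.09, 2.42 and 0.28, and its value of 49.8 CPM in the treated library of line 242 rested on 29 counts. Sdf2l1, which works with J-domain co-chaperones, had ratios of 0.20, 0.63 and -0.20, and Creld2, an ER stress-inducible isomerase-like protein, had 0.18, 0.16 and 0.23. The summed level of the 12 chaperones went from 2470 to 3338 CPM in line 240, from 2766 to 2765 CPM in line 242 and from 2304 to 2592 CPM in line 352. In bulk RNA, a smaller number of cells of a type and less RNA per cell cannot be told apart.

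**Figure D4:**
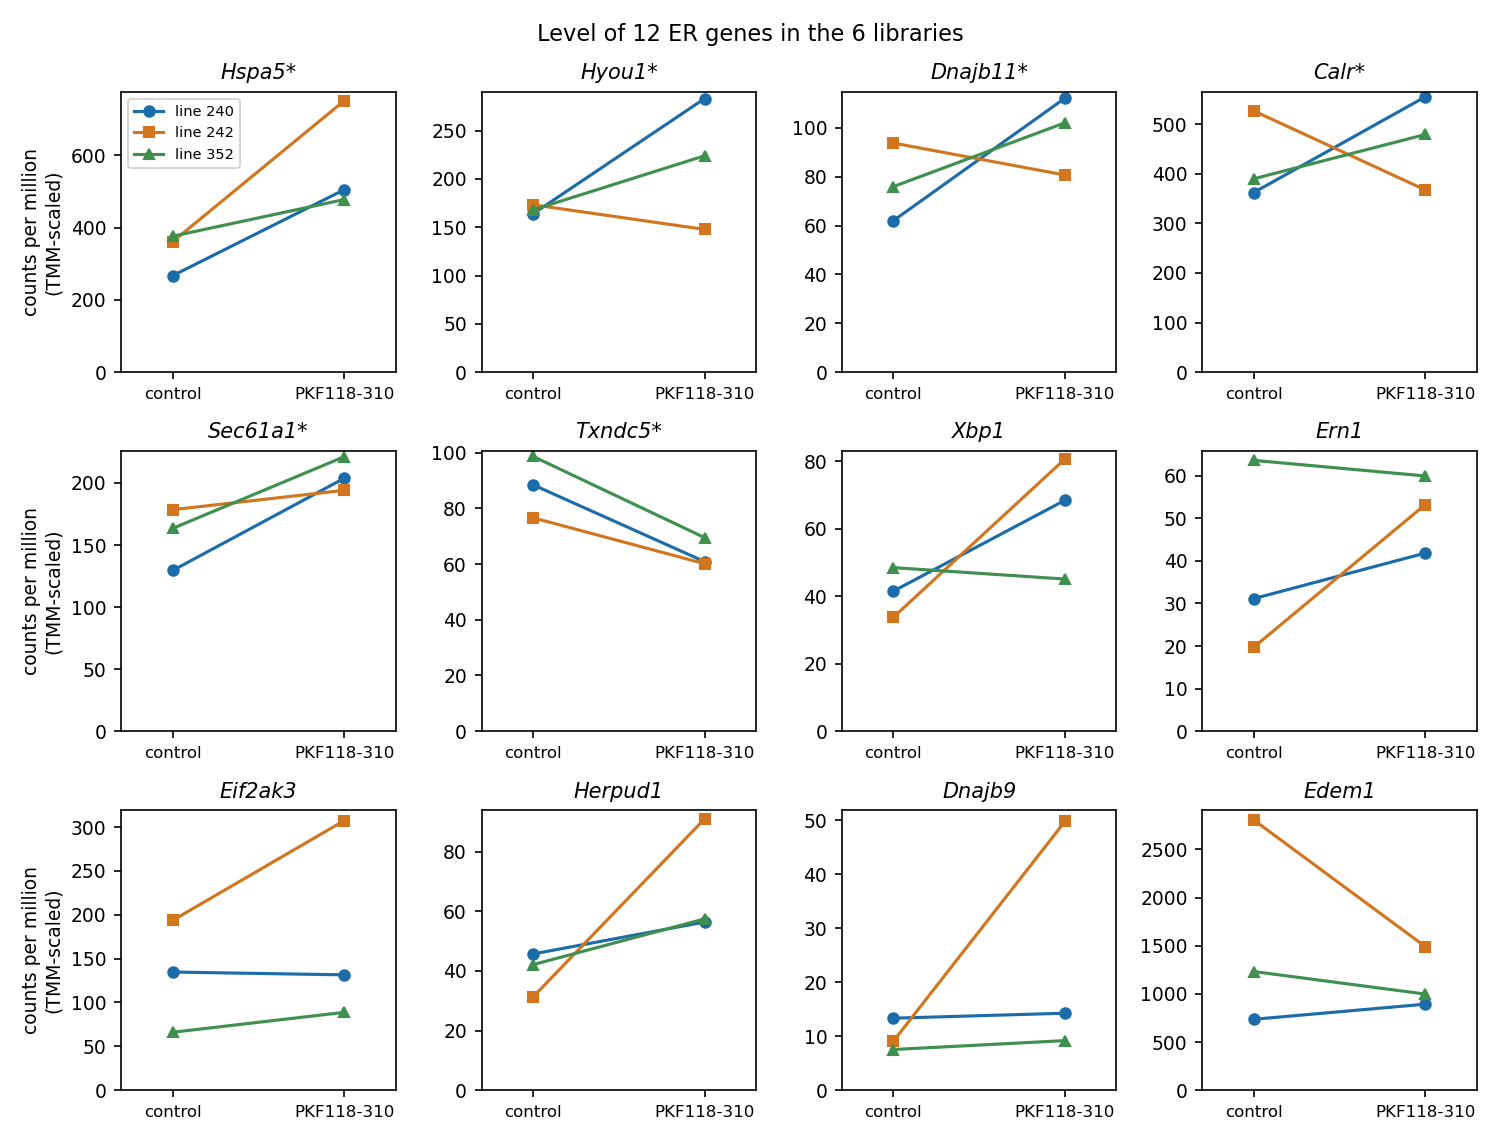
Level of 12 ER genes in control and PKF118-310 libraries of each line, in TMM-scaled CPM on axes that start at 0. Lines join the libraries of a cell line, and an asterisk marks an adjusted p below 0.05 in the edgeR fit of lines 240 and 352. All 3 lines slope up for Hspa5, Sec61a1, Herpud1 and Dnajb9 and down for Txndc5, and line 242 slopes against the other lines for Hyou1, Dnajb11 and Calr.

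Of the translocon, Sec61a1 encodes the pore itself and lies on chromosome 6 from 88503579 to 88518905, with Gm44170 on the opposite strand. It went from 130 to 204 CPM in line 240, from 179 to 194 CPM in line 242 and from 163 to 221 CPM in line 352. The treated libraries all lay above the controls, with the narrowest gap in line 242. It rose by 0.54 ± 0.11 in lines 240 and 352 (edgeR adjusted p = 0.00850) and had 0.45 ± 0.16 in all 3 lines. Sec61b, a small subunit beside the pore, had ratios of 0.04, -0.94 and 0.20 in lines 240, 242 and 352, and the treated library of line 242 held 14 counts.

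Among the oxidoreductases, Txndc5 fell in lines 240 and 352. It encodes a thioredoxin-like disulfide isomerase and lies on chromosome 13 from 38500079 to 38528824, with Bmp6 and other genes on the opposite strand. Its level went from 88.5 to 60.9 CPM in line 240, from 76.6 to 60.1 CPM in line 242 and from 98.7 to 69.5 CPM in line 352. The treated libraries all lay below the controls, as they did for Dnajc10 and for 3.15% of all genes. The log2 fold change was -0.52 ± 0.11 in lines 240 and 352 (edgeR adjusted p = 0.0130) and -0.44 ± 0.15 in all 3 lines (unadjusted p = 0.0306, adjusted p = 0.842).

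The other 5 oxidoreductases did not pass. Pdia3, the isomerase that works with Calr and Canx, had ratios of 0.42, -0.15 and 0.26, and P4hb, which encodes protein disulfide isomerase, had -0.12, 0.54 and -0.14. Pdia4 had 0.03, 0.30 and 0.01, and Pdia6 had 0.31, -0.18 and -0.14. Erp44, which retains enzymes in the early secretory pathway, had 0.02, -0.38 and 0.14. Their summed level together with Txndc5 went from 1117 to 1217 CPM in line 240. It went from 1062 to 1109 CPM in line 242 and from 1114 to 1116 CPM in line 352.

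None of the 4 genes grouped as sensors, Xbp1 included, passed the test in either fit. In line 242 all 4 were higher in the treated library, with a median ratio of 0.99, whereas the medians were 0.28 in line 240 and -0.09 in line 352. The same library had the mitochondrial share and the excess of otherwise absent genes given above, and their part in these ratios was not tested.

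Xbp1, the transcription factor whose mRNA is spliced by IRE1, went from 41.5 to 68.5 CPM in line 240, from 33.8 to 80.7 CPM in line 242 (47 counts in the treated library) and from 48.5 to 45.1 CPM in line 352. The treated library of line 352 lay among the controls. Its log2 fold change was 0.60 ± 0.30 in all 3 lines and 0.24 ± 0.17 in lines 240 and 352 (edgeR adjusted p = 0.421), and counts per gene do not separate the spliced form. Ern1, which encodes IRE1, went from 31.1 to 41.8 CPM, from 19.7 to 53.2 CPM and from 63.6 to 60.0 CPM in lines 240, 242 and 352. Its control in line 352 was the highest of the 6 values, and the treated value in line 242 rested on 31 counts. The fits gave 0.52 ± 0.33 for all 3 lines and 0.10 ± 0.15 for lines 240 and 352.

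Eif2ak3, which encodes PERK, had 135 and 132 CPM in control and treated cells of line 240, 194 and 307 CPM in line 242 and 66.0 and 88.8 CPM in line 352. Line 242 was above the other lines in both groups and line 352 below them. Its log2 fold change was 0.39 ± 0.20 in all 3 lines and 0.21 ± 0.12 in lines 240 and 352 (edgeR adjusted p = 0.311). Atf6, which encodes the sensor that is cleaved to a transcription factor, had 68.2 and 74.8 CPM in line 240, 76.9 and 127 CPM in line 242 and 58.1 and 52.8 CPM in line 352. The treated library of line 242 stood apart from the other 5, which lay between 52.8 and 76.9 CPM. The fits gave 0.25 ± 0.23 and -0.02 ± 0.13.

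Of the degradation genes, none passed the test in either fit. In all 3 lines 4 of the 9 tested were higher (44.4%, against 27.3% of members and 13.9% of all genes), with no test. Herpud1, which assembles the degradation complex at the ER membrane and carries ERSE-II, went from 45.7 to 56.4 CPM in line 240, from 31.3 to 91.0 CPM in line 242 and from 42.1 to 57.5 CPM in line 352. The treated libraries all lay above the controls, and line 242 had both the lowest control and the highest treated value, the latter from 53 counts. The log2 fold change was 0.74 ± 0.30 in all 3 lines (unadjusted p = 0.0543) and 0.39 ± 0.13 in lines 240 and 352 (edgeR adjusted p = 0.0754), where it passed in 2 of 11 alternative settings. Derl1, part of the channel that moves clients to the cytosol, had 0.42 ± 0.17 and 0.27 ± 0.11 in the same fits, with levels of 75.1 and 101 CPM in line 240, 82.2 and 125 CPM in line 242 and 145 and 161 CPM in line 352. Its groups overlapped because line 352 was higher throughout. Sel1l, the scaffold of the ubiquitin ligase, had 0.34 ± 0.15 and 0.29 ± 0.13, and Syvn1, the ligase HRD1 itself, had ratios of 0.32, 0.26 and 0.38.

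Without Edem1, the summed level of the degradation genes went from 494 to 572 CPM in line 240, from 481 to 589 CPM in line 242 and from 541 to 600 CPM in line 352. Os9, Edem2, Edem3 and Derl2, which recognise or move misfolded glycoproteins, had log2 fold changes between -0.04 and 0.07 in lines 240 and 352.

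Edem1 outweighed the other degradation genes and moved differently in each line. It lies on chromosome 6 from 108828641 to 108859356, with no overlapping gene in the annotation. It went from 736 to 893 CPM in line 240, from 2806 to 1491 CPM in line 242 and from 1232 to 998 CPM in line 352. The groups overlapped, and the controls of the 3 lines spanned a wider range than treatment moved any line. The fits gave -0.28 ± 0.28 for all 3 lines and -0.02 ± 0.15 for lines 240 and 352 (edgeR adjusted p = 0.958). Edem1 alone took 13.5% to 36.6% of the counts of the 34 genes and ranked 8th by CPM among all genes in the control of line 242, while its relatives Edem2 and Edem3 averaged 9.93 and 8.43 RPKM in controls.

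Levels were also compared between the lines. The control and treated libraries of a line served as its replicates, so these tests do not measure the spread between tumors. In the fit of 3 lines, with treatment in the model, Eif2ak3 was the single member past the threshold (edgeR adjusted p = 0.0486), 1 of 33 against 5.32% of all genes. Between lines 240 and 352 alone, 13 of 33 members differed (39.4%), near the share of all genes (44.7%). Of these, Ern1, Creld2, Syvn1, Edem1, Derl1 and Sec61b were higher in the control of line 352, and Atf6, Eif2ak3, Hsp90b1, Dnajb9, Dnajc3, Canx and Sel1l were lower there. Dnajc3 had the smallest adjusted p of the members, with 227 and 178 CPM in control and treated cells of line 240 and 104 and 87.2 CPM in line 352, and its values in the lines did not overlap.

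Members with a full element lay on both sides of the threshold. Of the 10 tested genes with ERSE or ERSE-II, 3 rose in lines 240 and 352 (Hspa5, Dnajb11 and Calr). That is 30%, against 15.2% of the 33 tested members and 5.01% of all genes. The match of Dnajb11 lies after the start. Hyou1 and Sec61a1, which also rose, had no window and could not be scored. The median log2 fold change of the 10 was 0.30, beside 0.13 over members and -0.01 over all genes. Whether an element goes with a rise was not tested. In all 3 lines 0 of the 10 passed the edgeR test, with 1 at an unadjusted p below 0.05. Hsp90b1, which carries a second copy, had 0.09 ± 0.12 in lines 240 and 352, and Dnajc3 had -0.30 ± 0.10 there. Canx had 0.24 ± 0.12, and Txndc5, the member with the UPRE core, fell.

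Other genes of the same pathway were read from a list of 54. In all 3 lines 0 of 52 tested passed the edgeR test, with 1 at an unadjusted p below 0.05 and a median of 0.06. In lines 240 and 352, 2 of 53 rose (3.77%, against 5.01% of all genes) and 1 fell (1.89%, against 5.92%). Ssr4, a subunit of the translocon-associated complex, went from 40.8 to 55.2 CPM in line 240, from 43.5 to 34.4 CPM in line 242 and from 62.2 to 91.4 CPM in line 352, and Ube2g2, a ubiquitin-conjugating enzyme of ER degradation, rose by 0.52 ± 0.14 (edgeR adjusted p = 0.0313). Ero1l, the oxidase that recharges protein disulfide isomerase, went from 323 to 210 CPM in line 240 and from 128 to 76.9 CPM in line 352, a log2 fold change of -0.68 ± 0.10 (edgeR adjusted p = 0.00212), and from 76.3 to 278 CPM in line 242. The lines therefore ran in opposite directions for Ero1l. Nploc4, a cofactor of the p97 segregase, and Selenos, an ER membrane selenoprotein, had 0.34 ± 0.10 and 0.60 ± 0.18, with edgeR adjusted p of 0.0505 and 0.0521.

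The targets of the PERK arm, a list of 8, had a median log2 fold change of 0.76 in lines 240 and 352. In lines 240 and 352, 3 of 8 rose (37.5%, against 5.01% of all genes), and in all 3 lines 0 of 7 tested passed the edgeR test. With limma voom and sample weights, 4 of 7 rose in the fit of 3 lines (57.1%, against 3.17% of all genes). Atf4, the transcription factor translated when PERK is active, went from 129 to 195 CPM in line 240, from 199 to 333 CPM in line 242 and from 236 to 293 CPM in line 352. It was higher in the treated library of every line, with 0.44 ± 0.11 in lines 240 and 352 (edgeR adjusted p = 0.0264). The others that rose in the edgeR fit of lines 240 and 352, named after their values were seen, were Trib3, an inhibitor of ATF4, and Atf3. Atf3, a stress transcription factor, had 0 to 3 counts in the controls and 13, 129 and 61 counts in the treated libraries of lines 240, 242 and 352.

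Ddit3, which encodes the pro-apoptotic factor CHOP, had 21.0 and 32.01 CPM in line 240, 18.4 and 103 CPM in line 242 and 22.4 and 21.3 CPM in line 352. Its ratio was therefore 2.46 on the log2 scale in line 242 and -0.07 in line 352, and it did not pass the test (0.20 ± 0.20 in lines 240 and 352). Ppp1r15a, which reverses the translational block set by PERK, had ratios of 0.61, 3.58 and 0.51, with treated libraries all above the controls and an edgeR adjusted p of 0.0788 in lines 240 and 352. ATF4 and several of these targets also answer to kinases other than PERK.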

How the data were processed

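The 34 genes and the other lists were chosen with earlier results of these data known. The authors deposited raw counts per gene in 12 files, with no normalization. Per the labels, poly(A) RNA went into stranded libraries. HISAT2, HTSeq, edgeR and mm10 stand in the submitters' processing notes, and TopHat in the study's methods. With versions, annotation and the strand setting of the counting not given in the sources used here, overlapping genes are uncertain.

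The 2 lanes of each library were summed, as the labels describe 1 library run on 2 lanes. Chi-square per degree of freedom between lanes was 0.982 to 1.02 in lines 240 and 242, and 2.01 and 2.05 in line 352. In a heatmap legend of the study, each line instead has a pair of separate cultures per group. If the lanes were such cultures, each sum would pool them. The libraries of a line come from 1 animal and were paired. They deviated together from the group means (correlations across genes 0.673, 0.303 and 0.789 for lines 240, 242 and 352). Counts were filtered with filterByExpr, scaled by TMM and tested with edgeR 4.0.16 (quasi-likelihood, line as a block) in R 4.3.3, over 10331 genes in 3 lines and 11760 in lines 240 and 352, with Benjamini-Hochberg adjusted p below 0.05 as the threshold. SEs were computed as the log2 fold change over the root of F. The p-values for treatment measure the spread of the response between lines, each with 1 library per group. With so few libraries, edgeR draws much of each gene's error from the other genes. P-values for differences between lines use the 2 libraries of a line as its replicates, so they do not measure the spread between tumors. Within-line ratios used a prior count of 2, and their 95% intervals are exact binomial ones for counting error only. RPKM used exon lengths of GENCODE vM21 on the same build. A count of 0 allows up to 3 counts. Per total counts, without TMM, that is 4.96 CPM in the treated library of line 242 and 0.218 to 0.949 CPM in the others. The test was run on simulated counts first. Marker sums are per total counts, without TMM.

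Full statistics were given for the 6 members of smallest p in 3 lines, the members past the threshold in lines 240 and 352, and the sensor group (Atf6, Ern1, Eif2ak3 and Xbp1). Alternatives were no block, DESeq2 1.42.0, the likelihood ratio test, limma 3.58.1 voom with sample weights, other scalings and filters, each lane alone, line 352 with halved counts, and each line left out.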

Additional observations from a re-analysis of the deposited data

Results flagged for a closer look

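In 7 members the ratios of treated over control pointed in opposite directions in a pair of lines, with 95% counting intervals of the ratios on opposite sides of 0. These differences were not tested, because each line has 1 library per group. The share of all genes that do so was not computed, so this count cannot be set against a background. In line 352 the lanes differed by more than counting error, so its intervals are too narrow. The gap between lines 240 and 242 was 1.14 on the log2 scale for Calr, 0.846 for Canx and 1.19 for Edem1, each higher after treatment in line 240 and lower in line 242. Calr and Canx were also higher in line 352, with gaps of 0.817 and 0.624 to line 242. Sec61b was higher in line 352 and lower in line 242, a gap of 1.13 that rests on 14 counts in the treated library of line 242. P4hb was higher in line 242 and lower in lines 240 and 352, with gaps of 0.657 and 0.676. Without the shallow library, Hsp90b1, Pdia6 and Edem1 were higher in line 240 and lower in line 352, with gaps of 0.353, 0.45 and 0.583.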

How the results depend on the processing

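In the fit of 3 lines the count of 0 members past the threshold was 4 with limma voom and sample weights and ran from 0 to 6 with a line left out, the 6 without line 242. In lines 240 and 352 the count of 6 was 3 with DESeq2 and 0 without the replicate block, where no call remained. Hspa5 also lost its call with the counts of line 352 halved, Txndc5 and Dnajb11 with DESeq2, and Calr with DESeq2, the stricter filter, lane 2 alone and line 352 halved. Of the members between the 3 lines, the 1 past the threshold was 3 with DESeq2, 7 with the likelihood ratio test, 6 with no filter, 2 with lane 2 alone, 0 with library totals and 0 with at least 10 counts in every library, and it ran from 0 without line 352 to 13 without line 242. With a line left out, the 3-line log2 fold change ran from -0.0916 to 0.452 for Calr, negative without line 240, and from -0.0212 to 0.450 for Atf6, negative without line 242. In lines 240 and 352, directions reversed for Atf6 with no replicate block (0.0117) and for Ern1 with lane 2 alone (-0.0878). In the other alternatives tried, the members given with full statistics kept their direction. The cause of these changes was not tested. In the treated library of line 242, 3 counts are 4.96 CPM of total counts, without TMM, so lower values there rest on fewer than 3 counts.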

Other observations

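The ratio of Hspa5 to Hsp90b1 counts, chosen after the values were seen, needs no scaling between libraries. Both genes encode abundant ER chaperones and both carry ERSE. Hspa5 counts per Hsp90b1 count went from 0.453 to 0.711 in line 240, from 0.701 to 1.43 in line 242 and from 0.825 to 1.11 in line 352. The log2 change of the ratio was 0.65 (95% counting interval 0.51 to 0.79), 1.03 (0.79 to 1.27) and 0.43 (0.35 to 0.50) in that order, so the chaperones shifted against each other in the same direction in all 3 lines. Hspa5 per Calr count changed by 0.30, 1.58 and 0.05, and in line 352 its interval (-0.03 to 0.12) spanned 0. The ratio of Edem1 to Edem2 counts was 19.7, 114 and 29.9 in the controls of lines 240, 242 and 352, so the excess of Edem1 over its relative was largest in line 242.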
